A study of Mus musculus with 12 samples.

Results

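The 10 genes of glucocorticoid action were followed in the colorectal tissue of mice: the receptors Nr3c1 and Nr3c2, the enzymes Hsd11b1 and Hsd11b2, the regulator of intestinal steroid synthesis Nr5a2, and the targets Fkbp5, Klf9, Zbtb16, Tsc22d3 and Sgk1. They were taken by their symbols from the count table, which lists 18514 genes. All 10 were found, and all 10 were among the 15484 genes that passed the filter on low counts and were tested. The fewest reads of a member in a library were the 73 of Zbtb16.

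The tissue came from 12 male C57BL/6 mice, bought at 4 weeks of age, with 1 library per mouse and 3 mice in each of 4 groups. Ctrl mice received neither AOM nor DSS and did not swim, and Ctrl_Swim mice swam for up to 90 min per day without AOM or DSS. Model mice were injected once with the carcinogen azoxymethane (AOM, 10 mg/kg) and drank 2% dextran sulfate sodium (DSS), an agent that damages the colon lining, in 3 cycles. Model_Swim mice received the same and swam, from before the injection to the end. Mice that did not swim were placed in shallow warm water in the same container. The study's methods give a different depth and temperature for the water of the swimming mice, so the handling was not fully matched. The colon was taken from the distal cecum to the rectum. Swimming took place at a fixed hour of the morning, and the hour of killing is not given in the sources used here. In such bulk tissue, fewer cells of a type and less RNA per cell cannot be told apart.

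Glucocorticoids are steroid hormones that cross the cell membrane and bind the glucocorticoid receptor, which then moves to the nucleus and switches genes on or off at response elements in the DNA. In the tissue, the enzyme encoded by Hsd11b1 regenerates active hormone from its inert form and the enzyme encoded by Hsd11b2 inactivates it, the latter protecting the mineralocorticoid receptor of the colon epithelium so that aldosterone can act there. The intestine is also known to make glucocorticoids itself in response to immune stimulation, under the control of Nr5a2, also called LRH-1. Swimming in laboratory mice is known as a stressor as well as exercise.

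The stretch of DNA around the transcription start was searched for motifs of these factors in the RefSeq promoter table of GRCm38.p6, which holds windows of 250 bases before to 50 bases after each start. It held 15 windows for 7 of the 10 members and none for Nr3c1, Zbtb16 and Hsd11b2. The palindromic glucocorticoid response element, AGAACA and TGTTCT with any 3 bases between them, stood without mismatch in 3 of 32851 windows, 0.0091% of them, and 1 of these 3 was a window of Sgk1. With up to 1 mismatch in the 12 fixed bases, 54 windows held it, 0.16%, and the same Sgk1 window was the single one among the members. Both strands were searched. This window is printed because it holds the exact element, which begins 189 bases before the start and is in capitals together with an E-box CACGTG 246 bases before the start, the binding motif of the clock proteins. The other 3 windows belong to the genes that were lower in Model than in Ctrl.
Sgk1, chr10:21993640-21993939, plus strand: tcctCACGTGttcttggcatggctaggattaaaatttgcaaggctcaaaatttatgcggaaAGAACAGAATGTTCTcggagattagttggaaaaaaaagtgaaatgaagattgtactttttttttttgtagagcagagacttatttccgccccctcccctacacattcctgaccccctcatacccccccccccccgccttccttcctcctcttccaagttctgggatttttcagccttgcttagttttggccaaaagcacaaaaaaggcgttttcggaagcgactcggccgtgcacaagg
Fkbp5, chr17:28486100-28486399, minus strand: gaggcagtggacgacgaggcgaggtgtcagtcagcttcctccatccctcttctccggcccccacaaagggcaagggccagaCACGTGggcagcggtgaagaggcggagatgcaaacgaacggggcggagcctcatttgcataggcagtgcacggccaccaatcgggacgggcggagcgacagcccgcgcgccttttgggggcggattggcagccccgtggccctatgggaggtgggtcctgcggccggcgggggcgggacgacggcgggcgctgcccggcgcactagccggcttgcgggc
Klf9, chr19:23140976-23141275, plus strand: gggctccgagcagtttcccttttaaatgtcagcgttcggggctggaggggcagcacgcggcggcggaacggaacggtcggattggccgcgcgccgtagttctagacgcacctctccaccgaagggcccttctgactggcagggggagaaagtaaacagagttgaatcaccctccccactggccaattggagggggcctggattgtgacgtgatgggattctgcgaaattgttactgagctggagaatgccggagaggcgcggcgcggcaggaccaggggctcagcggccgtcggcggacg
Nr3c2, chr8:76902080-76902379, plus strand: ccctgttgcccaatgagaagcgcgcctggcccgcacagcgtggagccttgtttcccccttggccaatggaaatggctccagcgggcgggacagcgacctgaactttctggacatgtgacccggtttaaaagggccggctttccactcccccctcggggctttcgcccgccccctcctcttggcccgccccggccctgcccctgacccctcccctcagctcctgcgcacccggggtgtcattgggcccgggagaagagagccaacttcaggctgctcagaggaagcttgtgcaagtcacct
The capitals in the Fkbp5 window mark an E-box 169 bases before the start, a motif present in 7.2% of all windows. The windows of Klf9 and Nr3c2 held none of the motifs searched. The shorter motif AGAACA, 1 arm of the palindrome and so overlapping it, which 19.0% of all windows hold, stood in 6 of the 15 members' windows, those of Nr5a2, Sgk1 and Tsc22d3. The LRH-1 site CAAGGTCA, present in 1.6% of all windows, stood in 2 further windows of Sgk1, where it overlaps the shorter core AGGTCA, which 16.3% of all windows hold and which also stood in a window of Nr5a2. The D-box TTATGTAA or TTACGTAA, present in 1.1% of all windows, was in no member's window. These matches are descriptions of letters and not of binding.

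Total counts lay between 17256953 and 19451055 per library, so that 3 counts, the upper limit that a zero allows, came to 0.154 to 0.174 CPM (read counts scaled to library size). This limit covers counting error only. All 15 colon epithelium markers were detected in every library, Muc2 and Car1 the most abundant among them. Libraries of the Model group stood apart from each other. The summed CPM of the epithelium markers was 10420 in Model 1 and 15382 in Model 2 but 24422 in Model 3, within the 23308 to 26184 of Ctrl. Pancreatic acinar transcripts such as Ctrb1 and Cela2a summed to 54935 CPM in Model 1 and 26741 CPM in Model 3, against 108 to 475 CPM in the other 10 libraries. Squamous epithelium markers such as Krt5 and Krt14 summed to 1026 and 1985 CPM in Model 1 and Model 2 and to 7.17 CPM in Model 3, with 6.65 to 11.1 CPM in Ctrl, 5.69 to 818 CPM in Ctrl_Swim and 138 to 1079 CPM in Model_Swim. Fibroblast markers such as Col3a1 and Dcn summed to 2603 to 2852 CPM in Model and 1509 to 1635 CPM in Ctrl, B cell markers such as Cd79a and Cd79b to 139 to 161 CPM and 35.8 to 72.4 CPM, and macrophage markers such as Csf1r and C1qa to 377 to 407 CPM and 231 to 252 CPM.

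Per length, Hsd11b2 was by far the most abundant member. Its mean over the 12 libraries was 110 FPKM (fragments scaled to transcript length and library size), more than 96.3% of the genes tested. Fkbp5 followed at 33.0 FPKM, Klf9 at 24.0 FPKM, Nr3c2 at 19.3 FPKM, Sgk1 at 17.3 FPKM and Nr3c1 at 16.3 FPKM. Tsc22d3 had a mean of 10.4 FPKM, Nr5a2 of 9.75 FPKM and Hsd11b1 of 7.16 FPKM, and Zbtb16 was the scarcest at 1.08 FPKM, above 18.6% of the genes tested. Neighbours in this order such as Nr3c2, Sgk1 and Nr3c1 lay within the spread over libraries, whose SD was 2.70, 3.65 and 2.67 FPKM. Between the lowest and the highest library the members varied from 1.54-fold for Klf9 to 4.67-fold for Zbtb16.

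**Figure D1:**
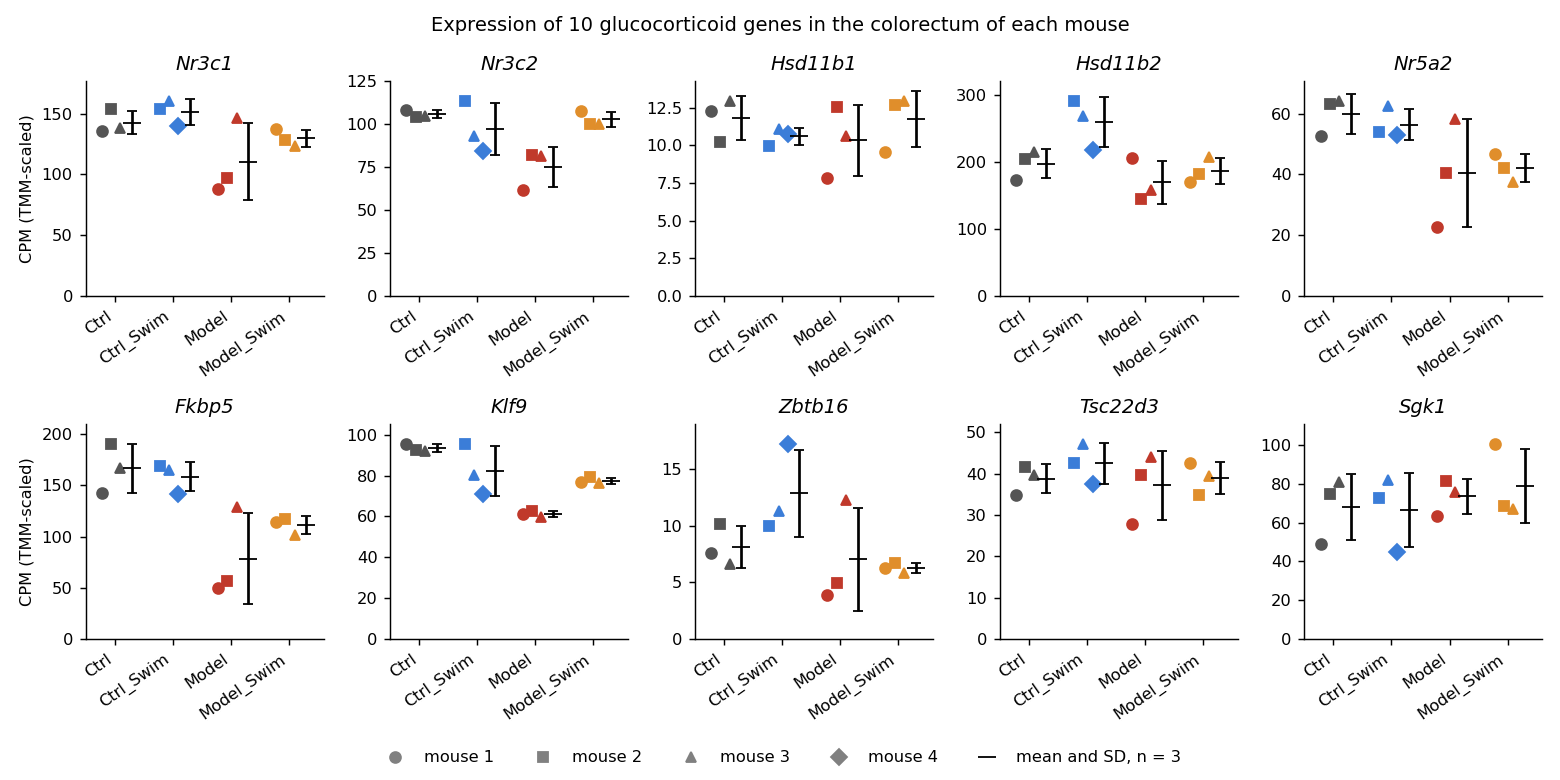
Expression of the 10 members in every mouse, as TMM-scaled CPM on a linear axis that starts at 0, with 1 symbol per mouse and the mean and SD of each group (n = 3) in black. Klf9 in the 3 Model mice lay between 59.8 and 62.8 CPM, below every other mouse, while Fkbp5 and Nr3c1 were low in Model 1 and Model 2 and near the other groups in Model 3.

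The first comparison asked how AOM/DSS changed these genes in mice that did not swim. Fkbp5, Klf9 and Nr3c2 were lower in Model than in Ctrl, and 0 members were higher. Fkbp5 fell to 0.471 of its control level, Klf9 to 0.656 and Nr3c2 to 0.709. A call here means an adjusted p under 0.05 in edgeR's quasi-likelihood test with Benjamini-Hochberg adjustment over all genes tested, and at that threshold 32.7% of all genes were called, 16.5% higher and 16.2% lower in Model. The members' count of 3 of 10 was thus close to the background. The median log2 fold change of the 10 members was -0.29, and that of all genes tested was 0.01. With the fold change under 0.5 that the study's methods also require, Fkbp5 alone of the members passed, and 1.22% of all genes passed as lower.

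Fkbp5, a co-chaperone of the receptor and a sensitive target of it, was at 143, 191 and 167 CPM in Ctrl 1, 2 and 3. It was at 49.6, 56.5 and 129 CPM in Model 1, 2 and 3. The groups did not overlap, but Model 3 lay close to the lowest control. The log2 fold change was -1.09 (SE 0.29, adjusted p = 0.0159). Without Model 3 it was -1.64, and the call was lost without Ctrl 2 (adjusted p = 0.0573), without Model 2 (adjusted p = 0.0558) and in a fit of the Model and Ctrl mice alone (adjusted p = 0.0651). The Model mice with low Fkbp5 were those with low epithelium markers and high squamous markers. With the mean log2 level of the epithelium markers as a covariate the log2 fold change was -0.30 (adjusted p = 0.564). That fit called 6.46% of all genes, against 32.7% without the covariate.

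Klf9, a zinc finger transcription factor induced by glucocorticoids and also known to follow the time of day, was at 95.6, 92.6 and 92.3 CPM in Ctrl. In Model it was at 61.3, 62.8 and 59.8 CPM. This was the tightest separation among the members, and unlike Fkbp5 it was as low in Model 3 as in the other Model mice. The log2 fold change was -0.61 (SE 0.09, adjusted p = 0.00110), and no left-out library ended the call. With the epithelium covariate, whose fit called 6.46% of all genes, it was -0.46 (adjusted p = 0.0727).

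Nr3c2, the mineralocorticoid receptor, which binds aldosterone and also glucocorticoids, was at 108, 104 and 105 CPM in Ctrl and at 61.4, 82.3 and 81.4 CPM in Model. Every Model mouse was below every control, and Model 1 was the lowest. The log2 fold change was -0.50 (SE 0.12, adjusted p = 0.0116). With the mean level of the acinar markers as a covariate the value was -0.33 (adjusted p = 0.177). With the epithelium covariate it was -0.06 (adjusted p = 0.757). These fits called 21.2% and 6.46% of all genes.

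Nr3c1, the glucocorticoid receptor itself, was at 136, 154 and 138 CPM in Ctrl and at 88.1, 96.7 and 147 CPM in Model. Model 1 and Model 2 were below all controls and Model 3 was between them. The log2 fold change of -0.37 (SE 0.16) did not pass (adjusted p = 0.0894), and without Model 3 it was -0.61 (adjusted p = 0.000542). Without Model 1 it was -0.22 (adjusted p = 0.259) and without Model 2 it was -0.26 (adjusted p = 0.258). With the epithelium covariate it was 0.08 (adjusted p = 0.796) and with the squamous covariate -0.10 (adjusted p = 0.585). The covariate fits called 6.46% and 17% of all genes. Nr5a2, the nuclear receptor that drives steroidogenic genes in the intestine, was at 52.5, 63.0 and 64.3 CPM in Ctrl and at 22.6, 40.3 and 58.3 CPM in Model, with a log2 fold change of -0.57 (SE 0.25, adjusted p = 0.102). Here too Model 3 was within the controls, and without it the log2 fold change was -0.92 (adjusted p = 0.00542).

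Zbtb16, a zinc finger repressor strongly induced by glucocorticoids in many cells, was also split within Model, with 7.56, 10.1 and 6.60 CPM in Ctrl against 3.91, 4.90 and 12.2 CPM in Model, where Model 3 was above every control. Its log2 fold change was -0.21 (adjusted p = 0.692), and without Model 3 it was -0.87 (adjusted p = 0.0261). Without Model 3, 6 members were thus called, namely Fkbp5, Klf9, Nr3c2, Nr3c1, Nr5a2 and Zbtb16, all lower in Model, in a fit that called 35.8% of all genes. Model 3 differed from Model 1 and Model 2 in its epithelium and squamous markers, whose part in these values was examined only by the covariate fits.

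The other 4 members did not pass. Tsc22d3, which encodes the anti-inflammatory protein GILZ, was at 34.8, 41.6 and 39.6 CPM in Ctrl and at 27.7, 39.7 and 44.0 CPM in Model. Sgk1, a kinase that promotes sodium uptake and is induced by both steroid classes, was at 48.9, 75.0 and 80.8 CPM in Ctrl and at 63.7, 81.7 and 75.7 CPM in Model. Both genes overlapped between the groups, with log2 fold changes of -0.06 and 0.11. Hsd11b1 was at 12.3, 10.2 and 13.0 CPM in Ctrl and at 7.83, 12.5 and 10.6 CPM in Model (log2 fold change -0.20, adjusted p = 0.425). Hsd11b2 was at 173, 204 and 215 CPM in Ctrl and at 206, 145 and 158 CPM in Model (log2 fold change -0.22, adjusted p = 0.274). Both enzymes overlapped between the groups, with SE of 0.18 and 0.15.

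**Figure D2:**
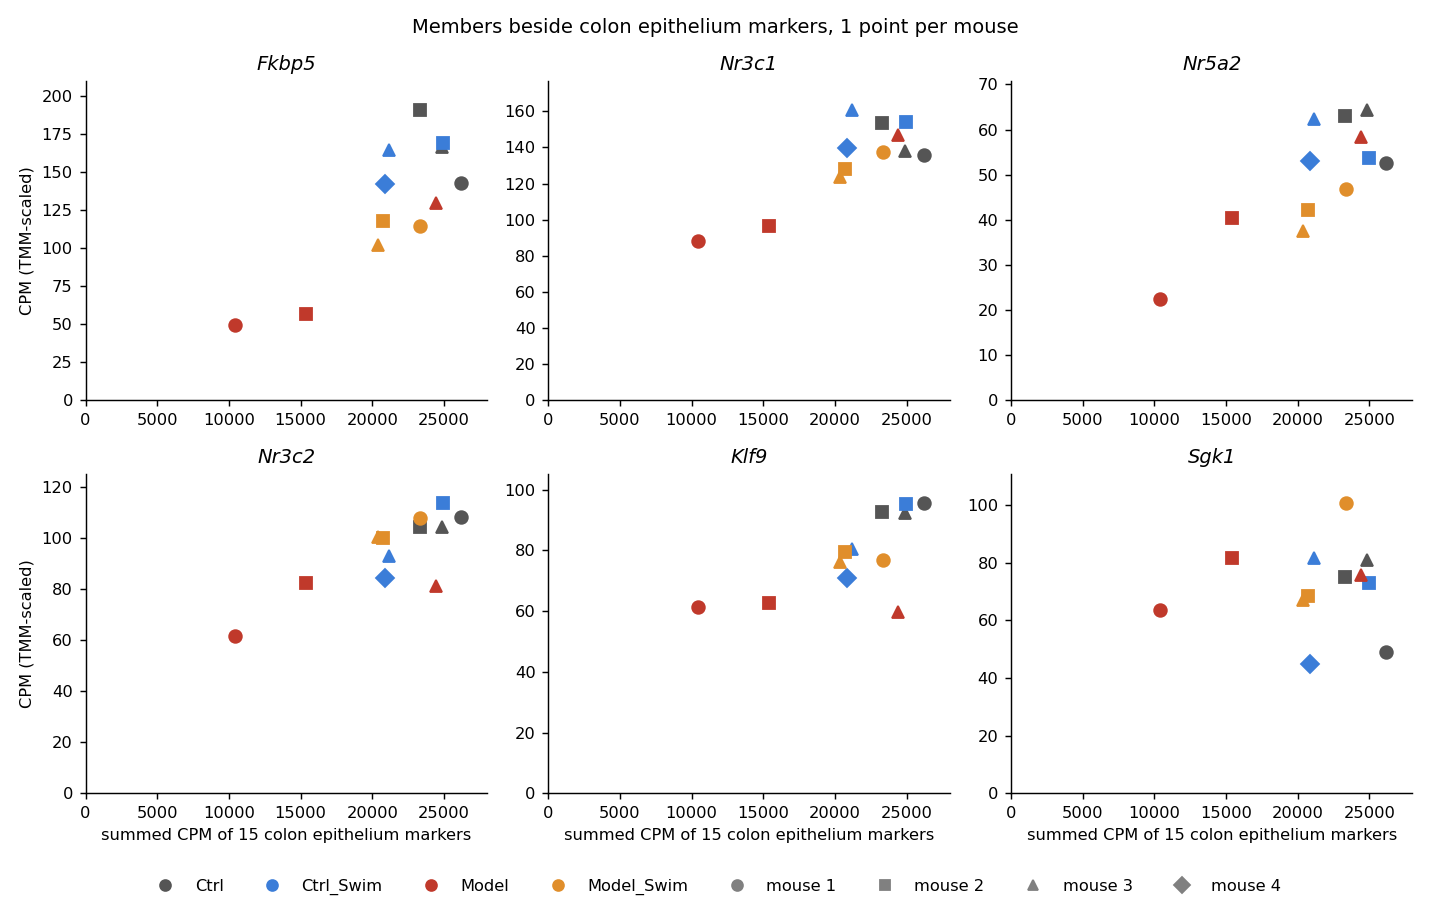
CPM of 6 members against the summed CPM of 15 colon epithelium markers, 1 point per mouse, coloured by group and shaped by mouse number, with both axes linear and starting at 0. In Model 1 and Model 2 low marker sums (10420 and 15382 CPM) went with low Fkbp5, Nr3c1 and Nr5a2, whereas Klf9 was equally low in Model 3, whose marker sum was 24422 CPM, and Sgk1 showed no such order.

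The second comparison asked how swimming changed these genes in AOM/DSS mice. It shares the Model mice with the first, so a low or high Model library moves both in opposite directions. None of the 10 members passed between Model_Swim and Model in edgeR, where 0.0710% of all genes were called. At an unadjusted p under 0.05 stood 2 members, Klf9 and Nr3c2, both higher in Model_Swim, against 13.6% of all genes. DESeq2, the tool of the study, called these 2 members and 1.96% of all genes.

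Klf9 was at 76.7, 79.3 and 76.2 CPM in Model_Swim 1, 2 and 3, above the 59.8 to 62.8 CPM of Model and below the 92.3 to 95.6 CPM of Ctrl. The log2 fold change to Model was 0.34 (SE 0.09, adjusted p = 0.176 in edgeR and 0.0328 in DESeq2). Nr3c2 was at 108, 100.02 and 100.3 CPM in Model_Swim, also without overlap with Model, and its log2 fold change was 0.45 (SE 0.12, adjusted p = 0.188 in edgeR and 0.0202 in DESeq2). Fkbp5 was at 115, 118 and 102 CPM in Model_Swim, above Model 1 and Model 2 and below Model 3. Its log2 fold change of 0.50 (SE 0.29) had an adjusted p of 0.477.

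Leaving out Model 3 changed this comparison. Fkbp5, Nr3c1 and Nr3c2 were then called as higher in Model_Swim, with log2 fold changes of 1.08 (adjusted p = 0.000782), 0.50 (adjusted p = 0.00803) and 0.53 (adjusted p = 0.0419). Over all genes the share called rose as well, to 5.62%. With all mice, Nr3c1 was at 137, 128 and 124 CPM in Model_Swim (log2 fold change 0.23, adjusted p = 0.548). Nr5a2 stayed low, at 46.8, 42.2 and 37.4 CPM, and overlapped Model (log2 fold change 0.06, adjusted p = 0.942). Zbtb16 was at 6.22, 6.74 and 5.83 CPM (log2 fold change -0.16). Tsc22d3, Sgk1, Hsd11b1 and Hsd11b2 had log2 fold changes of 0.07, 0.10, 0.18 and 0.13, and each overlapped Model.

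The third comparison asked what swimming did without AOM/DSS. No member passed between Ctrl_Swim and Ctrl, where 0.969% of all genes were called, and 1 member, Hsd11b2, had an unadjusted p under 0.05. Hsd11b2 was at 292, 268 and 218 CPM in Ctrl_Swim 2, 3 and 4, all above the 173 to 215 CPM of Ctrl, although Ctrl_Swim 4 was close to Ctrl 3. The difference was 31.4% (log2 fold change 0.39, SE 0.15, adjusted p = 0.217), and 0 alternatives called it. Zbtb16 was at 9.97, 11.3 and 17.2 CPM, which overlapped Ctrl (log2 fold change 0.67, SE 0.37, adjusted p = 0.369).

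The remaining glucocorticoid targets among the 10 members overlapped Ctrl in these swimming mice. Fkbp5 was at 169, 165 and 142 CPM and Tsc22d3 at 42.6, 47.2 and 37.5 CPM. Sgk1 was at 72.9, 81.8 and 45.0 CPM and Klf9 at 95.4, 80.5 and 70.8 CPM. Their log2 fold changes were -0.07, 0.13, -0.04 and -0.18, with SE of 0.28, 0.15, 0.25 and 0.09. The receptors Nr3c1 (154, 161 and 139.8 CPM) and Nr3c2 (114, 93.1 and 84.2 CPM) had log2 fold changes of 0.09 and -0.12. Nr5a2 was at 53.8, 62.4 and 53.0 CPM and Hsd11b1 at 9.97, 11.1 and 10.7 CPM, again overlapping Ctrl.

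The fourth comparison asked how AOM/DSS acted in mice that swam. No member passed between Model_Swim and Ctrl_Swim in edgeR, where 5.18% of all genes were called, 3.49% higher and 1.69% lower. Hsd11b2 and Zbtb16 had an unadjusted p under 0.05, both lower in Model_Swim, and DESeq2 called both, along with 8.49% of all genes. Hsd11b2 was at 169, 181 and 208 CPM in Model_Swim, below all 3 Ctrl_Swim mice, with a log2 fold change of -0.48 (SE 0.15, adjusted p = 0.0888 in edgeR and 0.0210 in DESeq2). Zbtb16 had a log2 fold change of -1.04 (SE 0.37, adjusted p = 0.134 in edgeR and 0.0494 in DESeq2), again without overlap. Fkbp5 (log2 fold change -0.51), Nr3c1 (-0.22) and Nr5a2 (-0.42) did not overlap either, but their adjusted p in edgeR were 0.326, 0.432 and 0.358. The margin of Nr3c1 was narrow, with a highest Model_Swim mouse at 137 CPM and a lowest Ctrl_Swim mouse at 139.8 CPM. How many of all genes separate in this way was not counted, so the lack of overlap is a description only. In a fit of these 6 mice alone Fkbp5, Zbtb16, Hsd11b2 and Nr5a2 were called, with adjusted p of 0.0164, 0.0287, 0.0491 and 0.0446, in a fit that called 8.59% of all genes. Without Model 3, which is in neither group but adds to the shared estimate of spread, Fkbp5 and Zbtb16 were called, and without Model 1 Hsd11b2 was, beside 9.3% and 8.92% of all genes. Klf9 (-0.09) and Nr3c2 (0.08), called between Model and Ctrl, overlapped here.

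Whether AOM/DSS acted differently in swimming mice was tested as an interaction. In edgeR 0 of 10 members passed, as did 0% of all genes tested, and 2 members, Klf9 and Nr3c2, had an unadjusted p under 0.05, against 19.0% of all genes. Their interaction values were 0.52 (SE 0.13, adjusted p = 0.115) and 0.58 (SE 0.17, adjusted p = 0.138) on the log2 scale, and DESeq2 called both (adjusted p = 0.0105 and 0.0305) along with 4.22% of all genes. Klf9 was also called without Ctrl_Swim 2 (adjusted p = 0.0359), where 1.24% of all genes were, and Fkbp5 was called without Model 3 (1.13, adjusted p = 0.00647), where 4.57% were. Averaged over untreated and AOM/DSS mice, swimming gave no member a call, where 0.652% of all genes were called. Hsd11b2 alone had an unadjusted p under 0.05 (log2 fold change 0.26, SE 0.10, adjusted p = 0.314), and without Model 3 Fkbp5 and Nr3c1 were called, with log2 fold changes of 0.51 and 0.30, beside 4.29% of all genes.

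**Figure D3:**
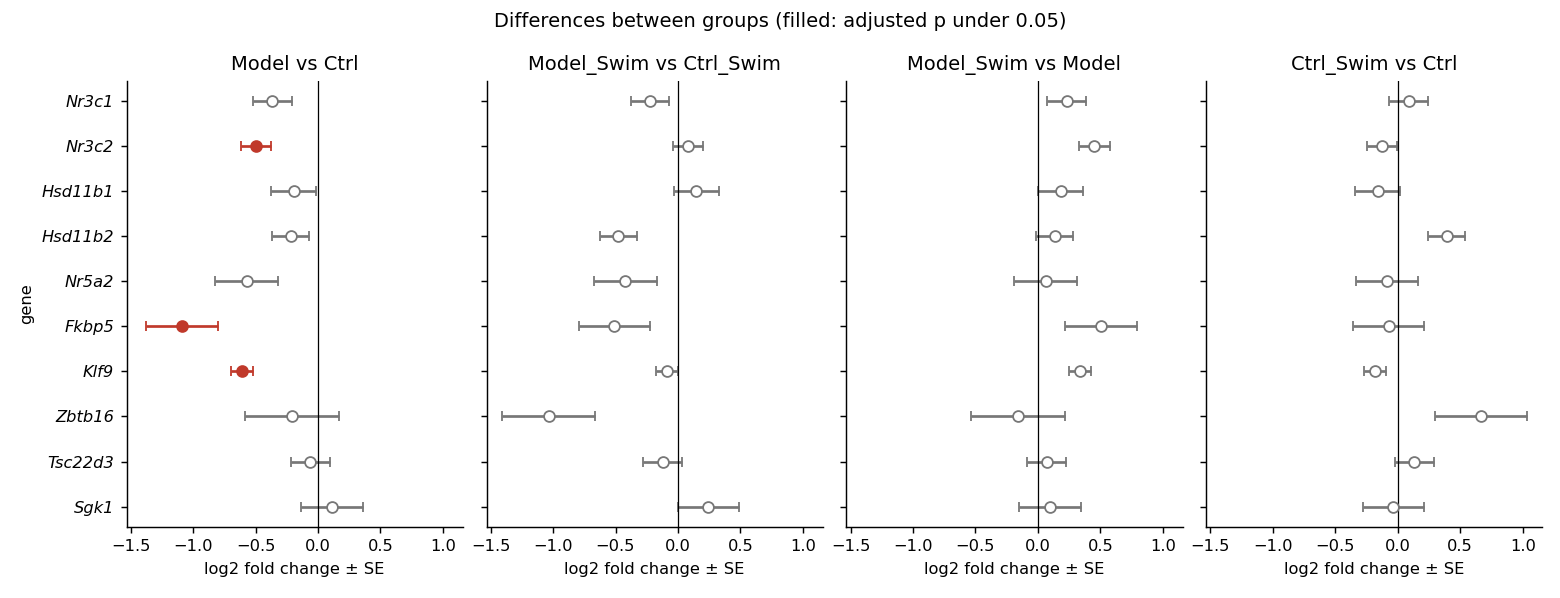
Log2 fold change and SE of the 10 members in the 4 comparisons between groups, from the edgeR fit of all 12 libraries, with filled symbols for an adjusted p under 0.05. The filled symbols are Nr3c2, Fkbp5 and Klf9 in Model vs Ctrl, and the values of Hsd11b2 and Zbtb16 in Model_Swim vs Ctrl_Swim are -0.48 and -1.04.

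The balance between inactivating and activating enzyme was described per library as the ratio of FPKM. Hsd11b2 exceeded Hsd11b1 in every library. The ratio was 14.2 ± 2.53 in Ctrl, 20.6 ± 3.75 in Ctrl_Swim, 14.7 ± 6.48 in Model and 13.4 ± 1.42 in Model_Swim (SD, n = 3). All 3 Ctrl_Swim mice, at 24.5, 20.3 and 17.0, were above the 3 Ctrl mice, at 11.8, 16.8 and 13.9, and above the 3 Model_Swim mice, but the margin over Ctrl 2 was small. Model 1 had a ratio of 22.1, and Model 2 and Model 3 had 9.70 and 12.5. The ratio of Nr3c1 to Nr3c2 was 0.807 ± 0.0669 in Ctrl, 0.945 ± 0.119 in Ctrl_Swim, 0.880 ± 0.188 in Model and 0.755 ± 0.0152 in Model_Swim, so that the receptor pair stayed near parity and the groups overlapped apart from Ctrl_Swim and Model_Swim.

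**Figure D4:**
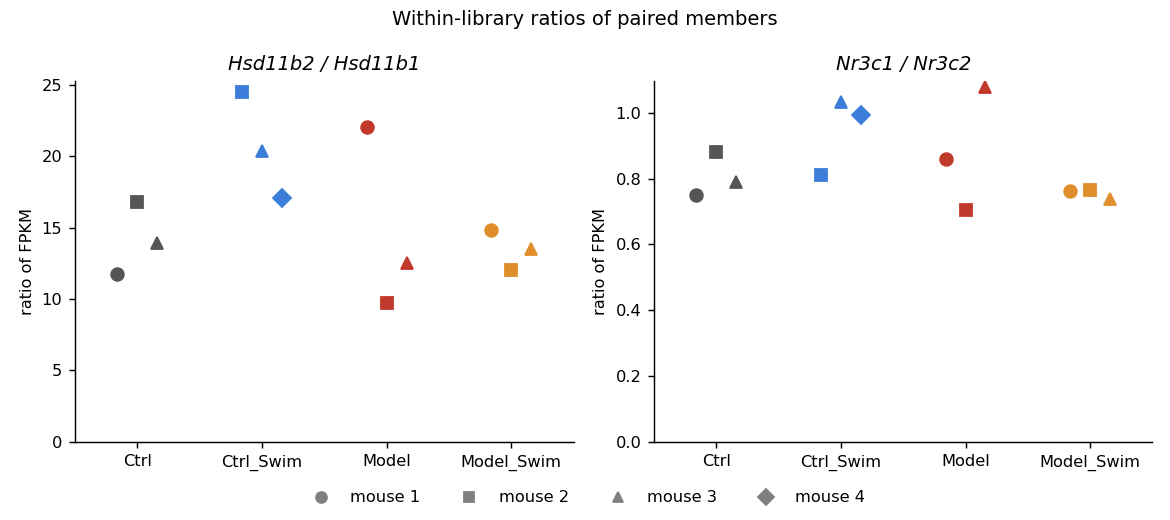
FPKM ratio of Hsd11b2 to Hsd11b1 (left) and of Nr3c1 to Nr3c2 (right) in each library, 1 symbol per mouse, on linear axes that start at 0. The Ctrl_Swim mice lie at 17.0 to 24.5 on the left, and the Model mice span 9.70 to 22.1.

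Several members varied together over the 12 libraries. Fkbp5 and Nr3c1 had the highest Pearson's r of any pair, 0.96, with a Spearman's rho of 0.84 for log2 CPM, and r was 0.79 without Model 1 and Model 2, the libraries farthest from the median of Fkbp5. Fkbp5 and Nr5a2 had an r of 0.89 (rho 0.89, and r of 0.87 without the same libraries). By rho, Fkbp5 with Nr5a2, Nr3c2 with Klf9 (0.87, with an r of 0.84) and Nr3c1 with Nr5a2 (0.85) were higher than Fkbp5 with Nr3c1. Fkbp5 also had an r of 0.74 with Klf9 and 0.73 with Nr3c2, which were 0.56 and 0.17 without Model 1 and Model 2. For deviations from the group means, the r of Fkbp5 was 0.97 with Nr3c1 and 0.85 with Nr5a2. It was 0.47 with Nr3c2 and 0.0085 with Klf9. Fkbp5 and Sgk1, both textbook targets of the receptor, had an r of -0.03. These values describe 12 libraries that share 4 groups, tissue composition and TMM scaling, and carry no test.

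By the same measure, the genes most like Fkbp5 among all tested were Hpgd, which inactivates prostaglandins, with an r of 0.99, then Adk (0.99) and Etfb (0.98). For Nr3c1 they were Klhl23, Ephx2 and Kbtbd11 (0.97 to 0.98), for Nr3c2 Ank3, Ppfia3 and Zbtb7b (0.96 to 0.97), and for Klf9 Iars2, Slc25a5 and Afg3l2 (each 0.97). For Nr5a2 they were Rhbdl3, Fastk and Cyp2s1 (0.95 to 0.97), for Tsc22d3 Oprl1, Insc and Col4a5 (0.92 to 0.93), and for Hsd11b2 Apoa1bp, Tmem60 and Eif4b (0.91 to 0.92). Zbtb16 was most like Amph, Mcoln2 and Vip (each 0.91). Sgk1 (Atn1, Sdccag3 and Fbxo27, 0.82 to 0.86) and Hsd11b1 (Ccdc60, H2-Q10 and Dcst2, 0.81 to 0.83) had the least close neighbours.

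A list of 35 other genes known to be induced by glucocorticoids moved in both directions. Between Model and Ctrl 14 of the 35 were higher and 4 were lower, beside the 16.5% and 16.2% of all genes, and their median log2 fold change was 0.33. The 4 with the largest change were Angptl4, an inhibitor of lipoprotein lipase (2.10, adjusted p = 0.0123), Il1r2, the decoy receptor of interleukin 1 (1.62, adjusted p = 0.00564), Anxa1, the anti-inflammatory annexin A1 (1.47, adjusted p = 0.0291) and the macrophage scavenger receptor Cd163 (-1.45, adjusted p = 0.0110). Angptl4 was at 1.77, 2.13 and 2.47 CPM in Ctrl and at 3.86, 6.43 and 17.0 CPM in Model, where Model 3 was the highest. Il1r2 was at 0.938, 1.36 and 1.54 CPM in Ctrl and at 4.45, 5.12 and 2.30 CPM in Model, all 3 above the controls. Several genes of this list are also known to be induced by inflammatory signals or made by immune cells. Macrophage and B cell markers were higher in Model, whereas Cd163, itself a macrophage gene, was lower. What part inflammation or immune cells had in the values of the list was not tested. Of the called genes, 6 of the 14 higher and 1 of the 4 lower passed the fold cutoff as well, beside 7.43% of all genes.

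The counts of this list moved with the fit, and so did the share of all genes called. Without Ctrl 2 there were 8 higher and 2 lower, without Ctrl 1 10 and 1, and without Ctrl 3 11 and 2. The shares of all genes called were then 20.1%, 22.3% and 20.8%. Without Model 1 there were 14 and 2, without Model 2 12 and 2, and without Model 3 14 and 8. The shares were then 32.2%, 23% and 35.8%. With the epithelium covariate 6 were higher and 0 lower, with the squamous covariate 6 and 1, and with the acinar covariate 7 and 2. These covariate fits called 6.46%, 17% and 21.2% of all genes. Between Model_Swim and Ctrl_Swim 7 of the 35 were higher and 0 lower, beside 3.49% of all genes higher, with a median log2 fold change of 0.34. The largest were Il1r2 (1.60, adjusted p = 0.0283), Dusp1, a phosphatase that turns off stress kinases (1.27, adjusted p = 0.00342), the liver enzyme Tat (1.24, adjusted p = 0.0176) and the cell cycle inhibitor Cdkn1c (0.99, adjusted p = 0.0444). Without Ctrl_Swim 3, Model_Swim 2 or Model_Swim 3 that count was 1, beside 1.44%, 1.19% and 1.08% of all genes called in either direction. Without Model 3 it was 10, beside 9.3%. Dusp1 was at 13.7 to 17.9 CPM in Ctrl and 12.3 to 16.3 CPM in Ctrl_Swim but at 37.2, 39.1 and 28.1 CPM in Model and 36.1, 31.2 and 32.3 CPM in Model_Swim, without overlap on either side.

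**Figure D5:**
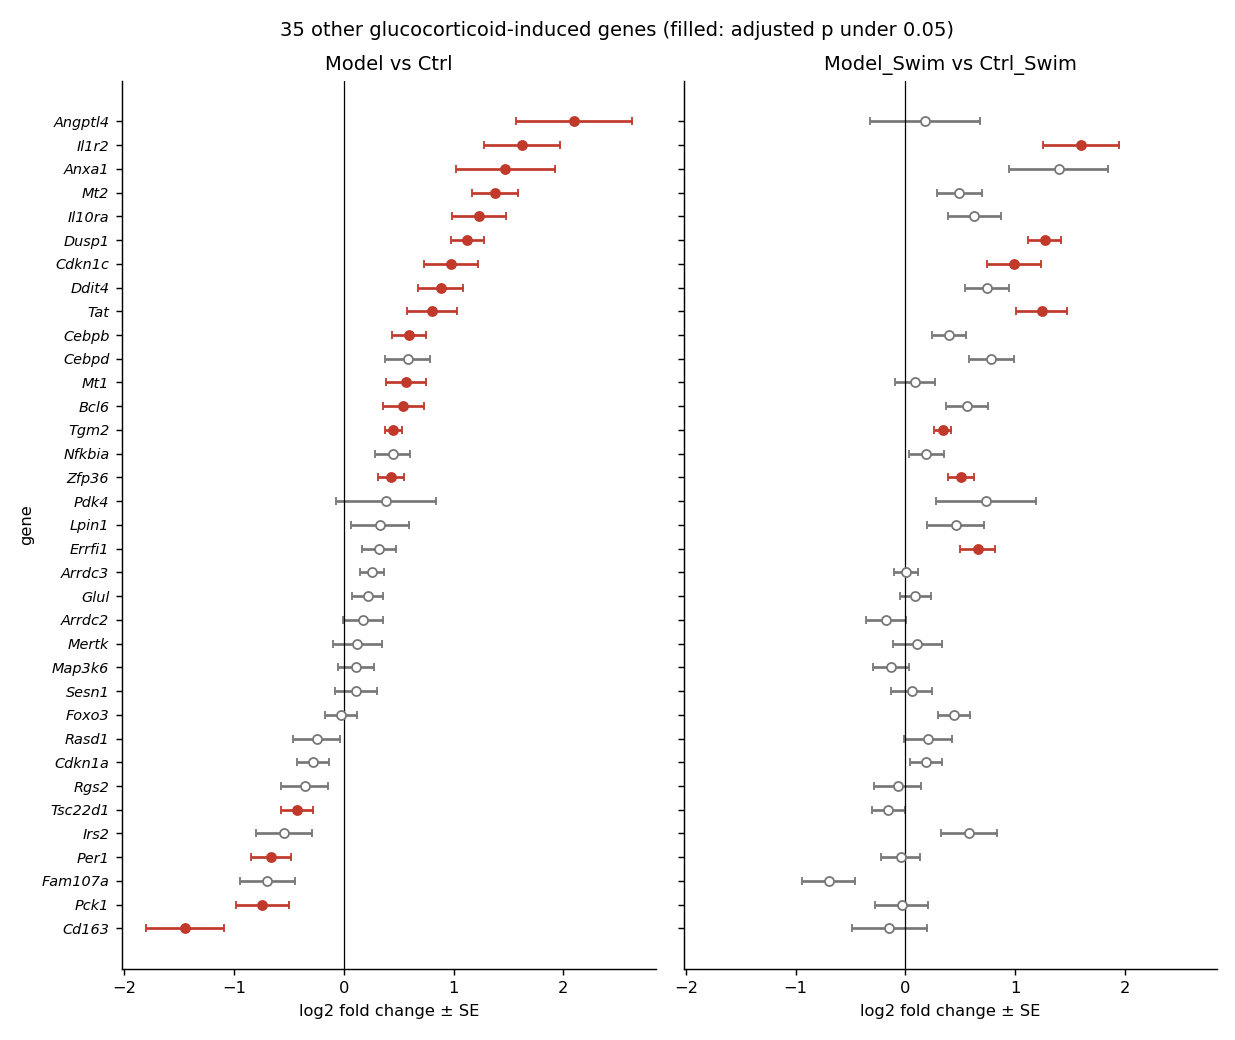
Log2 fold change and SE of the 35 other glucocorticoid-induced genes in Model vs Ctrl (left) and Model_Swim vs Ctrl_Swim (right), ordered by the left panel, with filled symbols for an adjusted p under 0.05. On the left 14 filled symbols lie above 0 and 4 below, and on the right 7 lie above 0.

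Between Model_Swim and Model 0 of the 35 passed in edgeR, with the lowest adjusted p at Per1 (1.13, adjusted p = 0.0603). Without Model 3 there were 3 higher and 1 lower, beside 5.62% of all genes called. Between Ctrl_Swim and Ctrl 0 passed in edgeR, with the lowest adjusted p at Mt2 (0.80, adjusted p = 0.109). At an unadjusted p under 0.05 stood 7 of the 35, 5 of them higher in Ctrl_Swim, against 2730 of all 15484 genes tested. In the average over both conditions 1 gene of the list was called, and without Model 3 the list had 2, beside 4.29% of all genes. Per1, both a direct target of the glucocorticoid receptor and a part of the circadian clock, was higher with swimming averaged over both conditions (log2 fold change 0.82, SE 0.13, adjusted p = 0.0280). It was at 41.2, 37.0 and 36.3 CPM in Ctrl, 63.3, 58.6 and 40.6 CPM in Ctrl_Swim, 27.5, 25.6 and 19.0 CPM in Model and 59.99, 44.1 and 53.9 CPM in Model_Swim. The count was 0 with any single one of these libraries left out: Ctrl 1, Ctrl 2, Ctrl 3, Ctrl_Swim 2, Ctrl_Swim 3, Model_Swim 1 or Model_Swim 3. Those fits called 0.0954% to 0.216% of all genes. Of the 19 clock genes, 8 were higher and 3 lower in the same average, led by Ciart (1.99), Nfil3 (-1.60), Dbp (1.52) and Arntl (-1.24). Between Model and Ctrl 4 clock genes were higher and 9 lower, between Model_Swim and Model 6 and 1, between Ctrl_Swim and Ctrl 1 and 3, and between Model_Swim and Ctrl_Swim 3 and 2. Over all genes the shares called were 32.7%, 0.0710%, 0.969% and 5.18% in these comparisons and 0.652% in the average. Leaving out 1 library moved the clock counts, and the share of all genes called moved as well. In the average 5 were higher without Ctrl 1 or Model_Swim 3 and 11 without Model 3, beside 0.0954%, 0.115% and 4.29% of all genes. Between Model_Swim and Model 3 were higher without Model_Swim 2, 4 without Model_Swim 1 and 10 without Model 3. The shares of all genes called were then 0.0382%, 0.0509% and 5.62%. Between Ctrl_Swim and Ctrl the clock counts were 0 and 0 without any 1 of the Ctrl mice or Ctrl_Swim 3, beside 0% to 0.0636% of all genes. They were 5 and 3 without Model 3, beside 1.65%. Between Model_Swim and Ctrl_Swim the clock counts were 0 and 0 without Ctrl_Swim 3, Model_Swim 1 or Model_Swim 2, beside 1.44%, 1.58% and 1.19% of all genes. They were 3 and 5 without Model 1 or Model 3, beside 8.92% and 9.3%. Dbp, a clock output gene, was at 64.0, 58.9 and 70.0 CPM in Ctrl, 118, 118 and 95.2 CPM in Ctrl_Swim, 6.97, 11.6 and 21.1 CPM in Model and 63.7, 69.9 and 56.7 CPM in Model_Swim. Like Klf9 it was lower in every Model mouse than in any other mouse. What part the time of day had in the members' values was not tested.

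Of 20 genes of steroid synthesis, 18 were in the table and 11 were tested. Cyp11b1 and Cyp11b2, whose enzymes make the final active hormones, were not in the table under these symbols, so they were not analysed here. Between Model and Ctrl 1 was higher and 1 lower, a share below the 32.7% of all genes called. Star, which carries cholesterol into mitochondria, was higher (1.22, adjusted p = 0.0180), but on 9 to 37 reads per library. Fdx1, the electron donor of the mitochondrial steroid enzymes, was lower (-0.58, adjusted p = 0.00204), at 31.1, 33.1 and 29.2 CPM in Ctrl and 20.7, 18.3 and 23.4 CPM in Model, without overlap. Without Ctrl 2, Ctrl 3 or Model 2 the count of higher genes was 0, in fits that called 20.1%, 20.8% and 23% of all genes. Without Model 3 there were 3 higher and 4 lower, beside 35.8% of all genes called. Between Model_Swim and Model 3 were higher without Model 3, beside 5.62%. No gene of the list passed in the other comparisons with all mice, where the lowest adjusted p-values were those of Por (0.229) between Model_Swim and Model, Star (0.213) between Ctrl_Swim and Ctrl and Fdx1 (0.0897) between Model_Swim and Ctrl_Swim.

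The enzymes that carry out the steps themselves were scarce or uneven. Cyp11a1, the first and rate-limiting enzyme, had 9 to 56 reads per library. Hsd3b3 and Hsd3b2 were abundant, with 1319 to 5403 and 220 to 769 reads, although these closely related genes may share reads. Cyp21a1, which makes the immediate precursor of corticosterone, had 0 reads in all 6 mice without AOM/DSS, so that up to 3 reads are allowed in each. It had 42, 4 and 0 reads in Model and 7, 4 and 15 in Model_Swim, and was too scarce to be tested. Hsd3b1, Cyp17a1, Nr5a1, Nr0b1, Nr0b2 and the receptor of ACTH, Mc2r, had between 0 and 6 reads in any library. The 6 adrenal cortex markers in the table, which do not include Cyp11b1 and Cyp11b2, summed to 2.02 to 6.27 CPM over all libraries. Of 10 genes of the CRF and ACTH signals, 9 were in the table and 0 passed the filter.

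Of 10 tested genes of glucocorticoid breakdown and NADPH supply, 3 were lower and 1 was higher in Model than in Ctrl and 6 did not pass, beside the 32.7% of all genes called. Those called were Akr1c14, a steroid dehydrogenase (-1.46, adjusted p = 0.000261), Slc37a4 (-0.41) and G6pc3 (-0.33), which handle glucose 6-phosphate in the endoplasmic reticulum, and the exporter gene Abcb1b (0.59, adjusted p = 0.0461), which lost its call without Ctrl 2, Ctrl 3, Model 2 or any 1 of the Model_Swim mice. Akr1c14 was at 263, 284 and 271 CPM in Ctrl and at 89.7, 116 and 90.8 CPM in Model. All Model mice were far below all controls, Model 3 included. Akr1c14 (-0.56), Slc37a4 (-0.39) and G6pc3 (-0.32) were also lower between Model_Swim and Ctrl_Swim, beside 1.69% of all genes. The count there was 0 without Model_Swim 1 or Model_Swim 2, in fits that called 1.58% and 1.19% of all genes. It was 1 without Ctrl_Swim 2, Ctrl_Swim 3 or Model_Swim 3, where 1.81%, 1.44% and 1.08% were called. Between Model_Swim and Model no gene of this list passed with all mice (lowest adjusted p 0.0608, Akr1c14). Without Model 3, 2 were higher, beside 5.62% of all genes called.

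Of 20 chaperones and cofactors of the receptor, 3 were lower in Model (Bag1 -0.80, Fkbp4 -0.49 and Hspa8 -0.33) and the coactivator Crebbp was higher (0.35). The other 16 did not pass, so that the share called was below the 32.7% of all genes. Fkbp4 encodes the co-chaperone that exchanges with the product of Fkbp5 on the receptor. Both genes were lower in Model, and whether they varied together over the mice was not examined. Without Model 1 the list had 3 higher and 8 lower, beside 32.2% of all genes called. Between Model_Swim and Ctrl_Swim Dnajb1 (0.57) and Crebbp (0.34) were higher, beside 3.49% of all genes. The count was 0 without Ctrl_Swim 3, Model_Swim 1 or Model_Swim 2, in fits that called 1.44%, 1.58% and 1.19% of all genes.

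Of 15 genes of the aldosterone response, 6 were lower and 1 was higher in Model than in Ctrl and 8 did not pass, beside the 16.2% of all genes lower and 16.5% higher. The median log2 fold change was -0.21, and 6 of the 15 had a positive value. Among those with the largest change were the deubiquitinase Usp2 (-1.29, adjusted p = 0.00287), the protease Prss8, which activates the epithelial sodium channel (-0.62, adjusted p = 0.000692), and Atp1b1 (-0.53, adjusted p = 0.00205). Between Model_Swim and Model no gene of the list passed with all mice, and 2 were higher without Model 3, beside 5.62% of all genes called. Between Model_Swim and Ctrl_Swim none passed either, with the lowest adjusted p at Usp2 (-0.88, adjusted p = 0.0507). Without Ctrl_Swim 4, 2 were lower, beside 2.92% of all genes called. With the epithelium covariate 3 of the 15 were lower between Model and Ctrl and 0 were higher, beside 6.46% of all genes called.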

How the data were processed

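Colorectal RNA from 12 mice was sequenced from poly(A)-selected, strand-marked libraries, 1 per mouse. Reads were trimmed (Trimmomatic) and aligned to the GRCm38.p6 genome (HISAT2), and the authors deposited raw counts per gene from HTSeq-count and FPKM values from Cufflinks. Tool versions, the annotation release and the strand setting of the counting are not given in the sources used here. RNA was extracted with TRIzol per the study's methods and with a mirVana kit per the labels. Groups were taken from the sample labels.

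From the deposited counts, edgeR 4.0.16 under R 4.3.3 computed TMM factors and kept genes passing filterByExpr (minimum count 10), and the comparisons were taken from a single quasi-likelihood model with 4 groups, each with Benjamini-Hochberg adjustment. Values per mouse are TMM-scaled CPM, and log2 CPM for correlations uses a prior count of 2. The deposited FPKM values were used for levels between genes and for ratios. The members and gene lists were chosen with earlier results of these data known. By rule, the text names all members, up to 4 called genes with the largest change per list and comparison or else the one with the lowest adjusted p, 2 abundant genes of a marker list, and the 3 genes most correlated with each member, leaving out gene models. Other genes, Per1, Dusp1, Akr1c14 and Dbp in single mice among them, were chosen after their values were seen. A gene that the rule names is not reported here.

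Alternatives were DESeq2 1.42.0 (the study's tool), its size factors in edgeR, no filter, a fit restricted to both groups of a comparison, replicate number as a blocking term, the study's fold cutoff of 2 or 0.5, acinar genes left out or as a covariate, limma 3.58.1 on log2(FPKM + 1) or log2(FPKM + 0.1) where mean FPKM reached 0.5 and on log2(FPKM + 1) for all genes, each library left out, and Model 1 and Model 3 left out together. The epithelium and squamous marker covariates were chosen after seeing the data. Scripts were tested on simulated counts. Promoter windows are from RefSeq.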

Additional observations from a re-analysis of the deposited data

How the results depend on the processing

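The direction of Fkbp5, Klf9 and Nr3c2 between Model and Ctrl was the same under all 26 alternatives. Of the 57 member and comparison values that did not pass, 27 had the other sign under 1 or more alternatives, never with a call, and 16 passed under 1 or more, 8 of them in fits other than those without Model 3. Between Model and Ctrl, where 3 members were called, 1 (Fkbp5) passed the study's fold cutoff, 5 passed without Model 1 and Model 3 together, 0 with the epithelium covariate and 1 (Klf9) with the squamous covariate, and leaving out single libraries gave 2 to 6. Of all genes, 32.7% were called between Model and Ctrl in the main fit, and 7.43% passed the fold cutoff. The share was 6.46% with the epithelium covariate, 17% with the squamous covariate and 20.1% to 35.8% with single libraries left out. The counts of members thus fell in fits where the share of all genes fell as well. Without Model 1 and Model 3, Model 2 was the only Model mouse, so the count of that fit is a description only. Between Model_Swim and Model, where 0 members were called, DESeq2 called 2, beside 1.96% of all genes. Single left-out libraries gave 0 to 3 members there, beside 0.0382% to 5.62% of all genes. Between Model_Swim and Ctrl_Swim, in place of 0, DESeq2 called 2 and the fit of the groups compared 4, beside 8.49% and 8.59% of all genes. Single left-out libraries gave 0 to 2 members there, beside 1.08% to 9.3% of all genes. For swimming averaged over both, single left-out libraries gave 0 to 2 members, beside 0.0954% to 4.29% of all genes. For the interaction, DESeq2 called 2 members, beside 4.22% of all genes. Single left-out libraries gave 0 to 1 there, beside 0% to 4.57% of all genes. Between Ctrl_Swim and Ctrl the count was 0 throughout, with 1 member at an unadjusted p under 0.05 in edgeR. The cause of these changes was not tested. The average and the interaction need all 4 groups, so no fit of fewer groups was run for them.

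With the replicate number as a replicate block, 3 members were called between Model and Ctrl and 0 in the other comparisons. That fit called 27.9% of all genes between Model and Ctrl and 0.258% between Model_Swim and Ctrl_Swim. Over 15 pairs of libraries with the same number, deviations from the group means correlated at -0.22 to 0.61, with 4 of 15 over 0.1. Over 39 pairs with different numbers they correlated at -0.60 to 0.49, with 12 of 39 over 0.1. The highest value was that of Ctrl_Swim 3 with Model 3, which share a number. The ranges overlap, so these values cannot tell whether the numbers pair the mice.

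Depth was lowest for Zbtb16 (73 to 337 reads), Hsd11b1 (146 to 244 reads) and the scarce steroid enzymes. The p-values of the main edgeR fit rest on 3 mice per group, with a spread between mice estimated over all groups together.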
